A study of Rattus norvegicus with 20 samples.

Results

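Selenoproteins carry selenocysteine, and the genes described here are 10 that encode selenoproteins or supply selenocysteine and cysteine: the glutathione peroxidases Gpx1, Gpx3, and Gpx4, the thioredoxin reductases Txnrd1 and Txnrd2, the selenocysteine synthesis and insertion genes Sephs2, Pstk, and Secisbp2, and the transsulfuration enzymes Cbs and Cth. They were taken by gene symbol from the 39747 genes of the count table. All 10 were found and all 10 passed the filter on low counts in each model. The study displayed several of them on these same samples, so their directions are a description of these libraries and not independent evidence.

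RNA came from dorsal root ganglia (DRG) of 14 wild-type female Sprague-Dawley rats fed a soy oil diet (SOD) or a fish oil diet (FOD) for 4 weeks before surgery, with the diets continued after it. Chronic constriction injury (CCI) placed 4 loose chromic gut ligatures on the left sciatic nerve, and the sham controls (CT) had the nerve exposed without ligatures. Left DRG gave 14 libraries, with 4 sham (SOD-CT) and 3 injured (SOD-CCI) rats on soy oil and 3 sham (FOD-CT) and 4 injured (FOD-CCI) rats on fish oil, and 6 libraries of the uninjured right side (contralateral) came from 3 SOD-CCI and 3 FOD-CCI rats. The rats were young adults at the start. Each library came from 1 rat, and the time from surgery to collection differs between the sources used here, so none is given. Every rat had surgery and ate 1 of the 2 diets.

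Selenocysteine is made on its own transfer RNA. Seryl-tRNA is phosphorylated by the kinase PSTK, and selenophosphate from selenophosphate synthetase 2 (SEPHS2, itself a selenoprotein) provides the selenium. The protein SECISBP2 binds a stem loop in the messenger RNA and lets a UGA codon be read as selenocysteine. GPX4 reduces lipid hydroperoxides in membranes and restrains ferroptosis, GPX1 reduces hydrogen peroxide in the cytosol, and GPX3 is a secreted peroxidase. TXNRD1 (cytosol) and TXNRD2 (mitochondria) keep thioredoxin reduced, while CBS and CTH convert homocysteine to cysteine, the limiting amino acid of glutathione.

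RefSeq promoter windows of 300 bases, from 250 before to 50 after each annotated start on GRCr8, matched all 10 genes with 13 windows. Windows are shown for Txnrd1, the member with the smallest unadjusted p after injury on soy oil, and for Gpx4, the most abundant member, which lay the other way. The Txnrd1 window lay at chr7:22755855-22756154 on the minus strand, with the antioxidant response element core TGACNNNGC in capitals as it reads on the other strand. The Gpx4 window lay at chr7:10303580-10303879 on the minus strand, with its 3 CCAAT boxes, in either orientation, in capitals. Both sequences read 5′ to 3′ along the gene.

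Txnrd1: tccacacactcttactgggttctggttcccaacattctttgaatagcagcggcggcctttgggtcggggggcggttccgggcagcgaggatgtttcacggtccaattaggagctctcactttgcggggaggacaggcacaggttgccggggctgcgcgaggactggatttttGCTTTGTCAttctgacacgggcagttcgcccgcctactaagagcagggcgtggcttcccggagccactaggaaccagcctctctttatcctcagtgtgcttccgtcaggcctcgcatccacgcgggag
Gpx4: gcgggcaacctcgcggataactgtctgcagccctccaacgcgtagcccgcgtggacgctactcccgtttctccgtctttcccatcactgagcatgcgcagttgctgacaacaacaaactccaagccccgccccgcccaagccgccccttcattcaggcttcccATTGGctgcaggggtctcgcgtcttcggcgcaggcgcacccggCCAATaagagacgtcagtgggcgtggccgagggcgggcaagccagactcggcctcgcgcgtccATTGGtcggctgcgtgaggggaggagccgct

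The antioxidant response element core, searched on both strands, was held by 1 of the 13 member windows and by 12.1% of the 33469 windows of all genes. The motif in the Txnrd1 window began 78 bases before the start, and the other Txnrd1 window held none. CCAAT boxes were in 6 member windows of 5 genes (Cbs, Cth, Gpx3, Gpx4, and Txnrd1), against 37.5% of all windows, and 2 of the 3 Gpx4 windows overlap each other. The E-box CACGTG was in 4 windows (Cth, Gpx1, Secisbp2, and Sephs2), against 6.42% of all windows. The AP-1 site TGAGTCA (4.63% of all windows) and the composite site TGATGNAAT (1.09%) were in none.

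Before any comparison, libraries were checked against markers of DRG and of neighbouring tissue, as sums of CPM (a gene's share of all counts in its library, on a fixed scale). Totals ran from 22547190 to 54437581 counts. All 12 sensory neuron markers were detected except for 3 (Trpv1, Scn10a, and Isl1) at 0 in contralateral FOD-CCI replicate 1. SOD-CT replicate 1 held 112000 CPM of 12 skeletal muscle genes, where SOD-CCI libraries held 106 to 181, and 6430 CPM of neuron genes, where SOD-CCI held 17200 to 19800. FOD-CT replicate 2 held 25100 CPM of the muscle genes, contralateral FOD-CCI replicate 3 held 8080, and SOD-CT replicate 4 held 6620. FOD-CCI replicate 2 held 24500 CPM of 9 red cell genes and SOD-CT replicate 4 held 10200, against 107 to 773 in SOD-CCI. Spinal cord genes summed to 2210, 3840, and 4320 CPM in replicate 1 of FOD-CCI, FOD-CT, and contralateral FOD-CCI and to 77.9 or less elsewhere, and the last of these held only 2380 CPM of neuron genes. Nerve injury genes such as Atf3 summed to 2070 to 2560 CPM in SOD-CCI and 1320 to 3630 in FOD-CCI replicates 2 to 4, but to 359 in FOD-CCI replicate 1, inside the 230 to 704 of sham and contralateral DRG. That library goes against its injury label and is called the library labelled FOD-CCI replicate 1. Values beyond their standard error (SE, derived from the test statistic) that moved by over 1.5 times without 1 of these libraries are given with and without it. Values within their SE are given so only where stated.

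Gpx4 was by far the most abundant member. Per gene length (FPKM, scaled by the authors for length and library), the median over 20 libraries was 634 for Gpx4, 114 for Gpx1, and 35.9 for Txnrd1. Sephs2 (16.3) and Gpx3 (14.5) followed, then Txnrd2 (6.78), Pstk (5.74), Cbs (3.01), Cth (2.83), and Secisbp2 (2.49). The FPKM ranges of Gpx4 (307 to 1450) and Gpx1 (74 to 486) overlapped, those of Gpx1 and Txnrd1 (23.1 to 61.3) did not, and those of the last 5 genes overlapped in every pair. Cbs varied most, by 67.4 times between its lowest and highest library in CPM, and Sephs2 least, by 2.16 times.

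**Figure D1:**
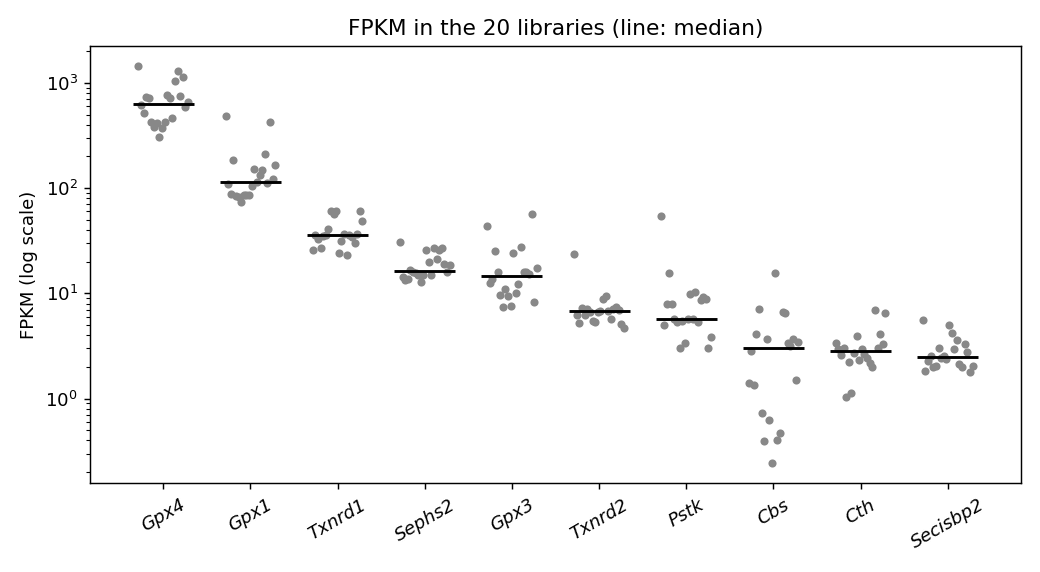
FPKM of the 10 members in each of the 20 libraries on a log axis, ordered by median (horizontal line). Gpx4 sits highest with a median of 634 and Secisbp2 lowest with 2.49, and Cbs has the widest spread.

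In bulk DRG a lower value can mean fewer cells of a type or less RNA per cell, which cannot be told apart here. Calls required a fold change of at least 1.2 and an adjusted p, by Benjamini-Hochberg over all genes tested, of no more than 0.1. By that rule 0% of genes were called in each of the 5 comparisons among left DRG and the 3 comparisons of contralateral with contralateral or sham DRG, and 0 members with them. At an unadjusted p under 0.05 members did pass in several comparisons, and their counts are read against the share of all genes that did so. Overlap of groups and left to right ratios are in CPM, by library totals alone. The fits also scale by library composition (TMM, factors of 0.7119 to 1.112 over the 20 libraries), so narrow gaps in CPM can close on that scale.

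Diets were first compared in injured DRG. The 3 glutathione peroxidases had higher values in FOD-CCI than in SOD-CCI, by 2.14 to 2.61 times, and Txnrd1 a lower one, and none passed the adjusted test. At an unadjusted p under 0.05, 3 of 10 members stood out (Gpx1, Gpx3, and Gpx4), against 5.4% of 14484 genes.

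Gpx4 measured 485.1, 384.8, and 462 CPM in the 3 SOD-CCI libraries and 878.8, 1297, 676.7, and 781.4 in the 4 FOD-CCI libraries. The groups did not overlap, the blood-rich FOD-CCI replicate 2 being the highest. The log2 fold change was 1.10 (SE 0.36, unadjusted p = 0.00905, adjusted p = 0.859), and 0.86 (SE 0.36, unadjusted p = 0.0318) without FOD-CCI replicate 2. Leaving out the library labelled FOD-CCI replicate 1 gave 1.12.

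Gpx1 measured 78.35, 83.85, and 81.73 CPM in SOD-CCI and 102.3, 372.9, 109.1, and 153.8 in FOD-CCI. Again the groups were apart, with one FOD-CCI library, the blood-rich one, more than 2-fold above the next. Its log2 fold change of 1.26 (SE 0.56, unadjusted p = 0.0405) dropped to 0.64 (SE 0.48, unadjusted p = 0.211) without it and was 1.46 without the library labelled FOD-CCI replicate 1. Red cells contain GPX1 protein as a peroxidase. With any 1 SOD-CCI library left out, the value stayed at 1.25 to 1.26 with an unadjusted p of 0.0844 to 0.087. The part of red cell RNA in the Gpx1 value was not tested beyond leaving that library out.

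Gpx3 measured 16.7, 15.31, and 12.02 CPM in SOD-CCI and 23.21, 83.18, 12.47, and 26.63 in FOD-CCI. Here the groups overlapped, and the same blood-rich library was the highest. Its log2 fold change of 1.38 (SE 0.60, unadjusted p = 0.0371) became 0.55 (SE 0.47, unadjusted p = 0.262) without that library. Of the 3 peroxidases, then, Gpx4 alone kept an unadjusted p under 0.05 when only FOD-CCI replicate 2 was left out. With SOD-CT replicate 1, in neither group, also left out, 3 of 10 members were under 0.05, all higher, against 5.77% of all genes. With SOD-CT replicate 1 alone left out, 4 of 10 were, all higher, against 9.89% of all genes. Among these 4 was Sephs2 (0.52, SE 0.22, unadjusted p = 0.0314).

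Txnrd1 measured 214.8, 213.6, and 226.1 CPM in SOD-CCI and 107.1, 124.3, 210, and 175.8 in FOD-CCI. In CPM, all FOD-CCI libraries were below all SOD-CCI libraries, by little for replicate 3. With TMM factors of 0.9977 for that library and 1.073 for SOD-CCI replicate 2, the groups overlap. A log2 fold change of −0.44 (SE 0.24, unadjusted p = 0.0912) was fitted, and −0.30 without the library labelled FOD-CCI replicate 1, the lowest of its group. Without FOD-CCI replicate 3, the highest, it was −0.62 (SE 0.23, unadjusted p = 0.0197), with 7.16% of all genes under 0.05 in that fit. Sephs2 was apart, with 32.6 to 37.1 CPM in SOD-CCI and 37.8 to 64.5 in FOD-CCI. Its log2 fold change was 0.51 (SE 0.30), and 0.34 without the library labelled FOD-CCI replicate 1. In CPM, every FOD-CCI library was above every SOD-CCI library for 3 members (Gpx1, Gpx4, and Sephs2) and 5.92% of all genes. The reverse was found for 1 member (Txnrd1) and 9.28% of all genes.

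Cth had a log2 fold change of 0.52 (SE 0.36), with 4.28 to 7.42 CPM in SOD-CCI and 5.39 to 11.9 in FOD-CCI, and it was 0.22 (SE 0.36) without FOD-CCI replicate 4. Values smaller than their SE were measured for Pstk, Cbs, Txnrd2, and Secisbp2, for which no direction is given. The median log2 fold change of the members was 0.58, against 0.04 over all genes tested. Over all genes tested, shorter genes had higher values in FOD-CCI (Spearman −0.35 between length and log2 fold change), and Gpx1 (882 bases) and Gpx4 are short. With that trend removed, Gpx4 was at 0.87, Gpx1 at 0.93, and the median of the members at 0.45. Macrophage markers summed to 337 to 559 CPM in SOD-CCI. They summed to 1680, 808, and 1580 CPM in FOD-CCI replicates 2 to 4 and to 124 in the library labelled FOD-CCI replicate 1. Their part in these values was not tested.

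**Figure D2:**
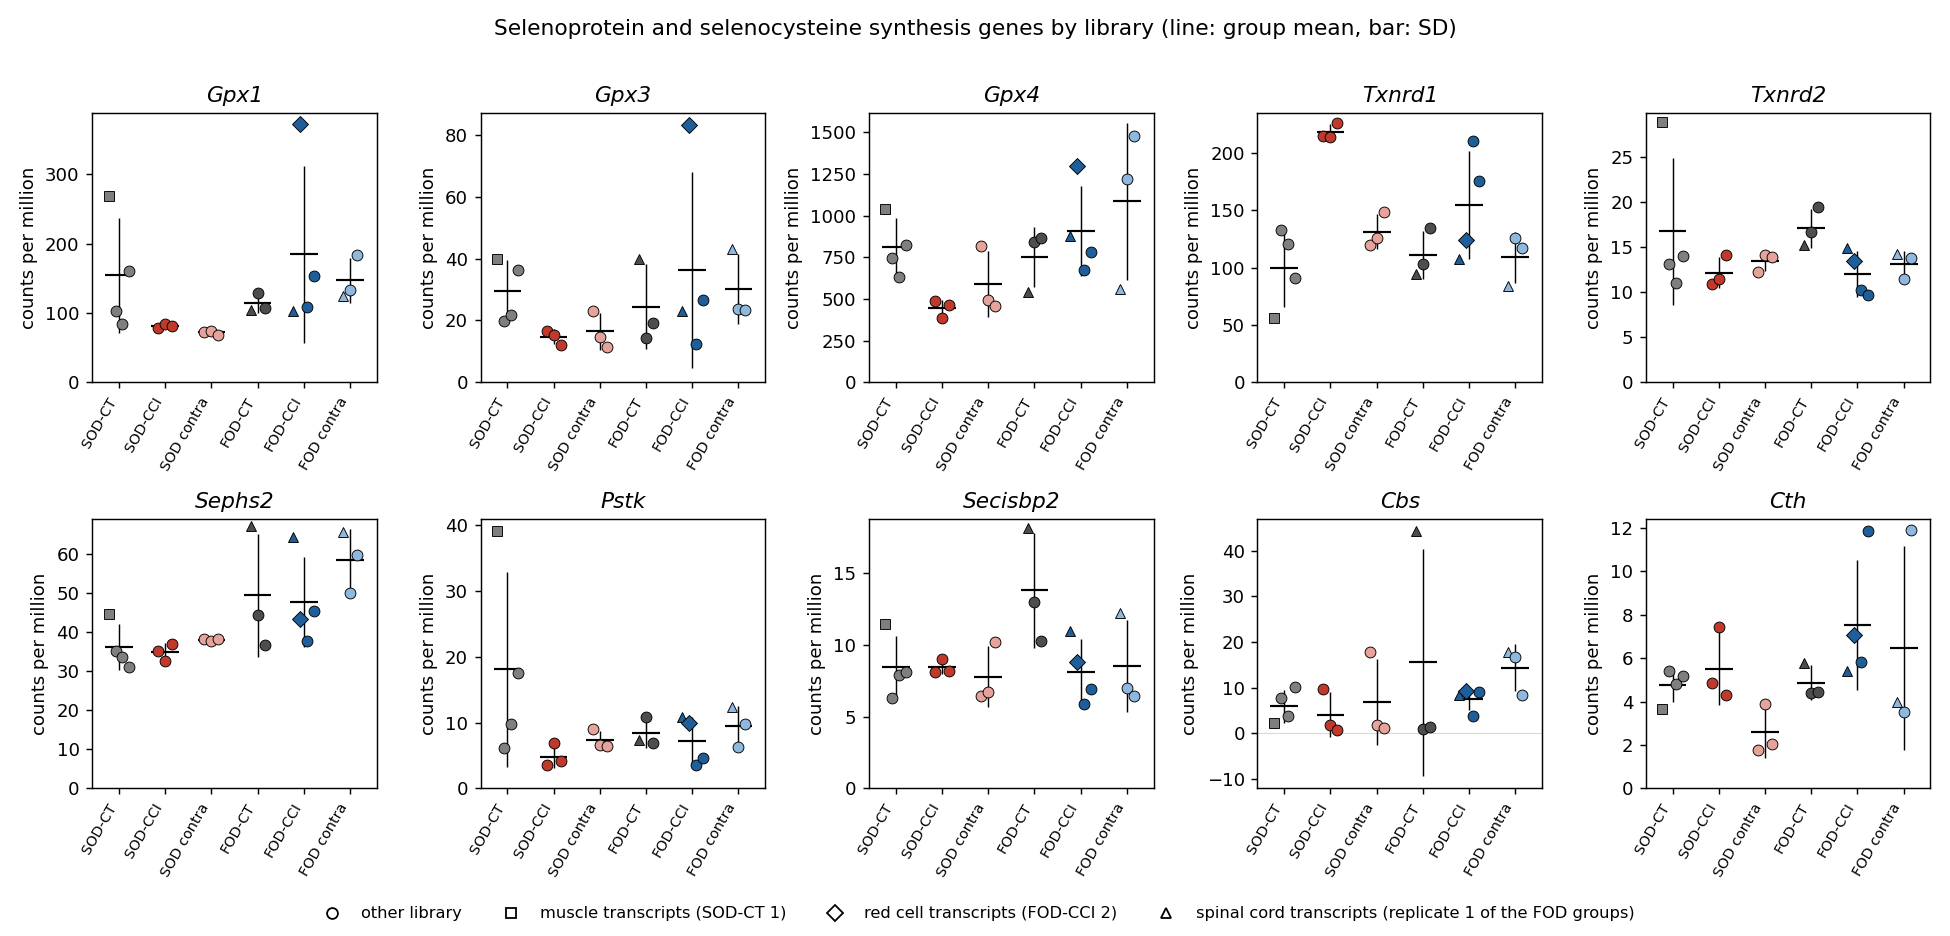
CPM of each member by library (points) in the 6 groups, with the group mean (line) and SD (bar). Squares, diamonds, and triangles mark the libraries with muscle, red cell, and spinal cord transcripts. The diamond is the highest FOD-CCI point for Gpx1 (373 CPM), Gpx3 (83.2), and Gpx4 (1300), and the square lies lowest for Txnrd1 (56.0) and highest for Pstk (39.2).

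The effect of injury on the soy oil diet was read from SOD-CCI against SOD-CT. Txnrd1 was higher in every injured library, by 1.99 times in the fit, and the 3 peroxidases and Pstk were lower. At an unadjusted p under 0.05 this held for 5 of 10 members (Txnrd1 higher, and Gpx1, Gpx3, Gpx4, and Pstk lower), against 13.8% of all genes, and the smallest adjusted p was 0.266.

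Txnrd1 stood at 55.98, 132.5, 120.6, and 90.66 CPM in SOD-CT, below the 213.6 to 226.1 of SOD-CCI. The injured libraries were tightly grouped and well clear of the sham libraries, of which the muscle-rich replicate 1 was the lowest. The log2 fold change of 1.00 (SE 0.24, unadjusted p = 0.00101, adjusted p = 0.266) was rank 36 of 14484 genes by p. Without SOD-CT replicate 1 it was 0.90 (SE 0.25, unadjusted p = 0.0027). DESeq2 gave it an adjusted p of 0.0219, and edgeR gave 0.0871 once the left libraries with spinal cord transcripts were left out, both past the threshold, while the other edgeR fits did not pass.

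Gpx4 stood at 1042, 748.4, 631.2, and 821.9 CPM in SOD-CT, above all SOD-CCI libraries. Its log2 fold change was −1.14 (SE 0.36, unadjusted p = 0.00728) and −0.76 (SE 0.29, unadjusted p = 0.0214) without the muscle-rich SOD-CT replicate 1, which was the highest. Gpx1, at 269.4, 103, 83.89, and 160.5 CPM in SOD-CT, had −1.28 (SE 0.56) and −0.56 (SE 0.44, unadjusted p = 0.22) without that library. So the Gpx1 value was more than halved by leaving out a single sham library. Gpx3, at 39.97, 19.77, 21.74, and 36.21 CPM in SOD-CT, had −1.29 (SE 0.60) and −0.87 (SE 0.58, unadjusted p = 0.157) without it.

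Pstk had the most negative value of the members, and it leaned on the same library. Its CPM in SOD-CT was 39.18, 6.081, 9.719, and 17.51, against 3.507, 6.844, and 4.144 in SOD-CCI. The groups overlapped between the lowest sham and the highest injured library. Its log2 fold change was −2.34 (SE 0.73, unadjusted p = 0.00631), and −1.27 (SE 0.53, unadjusted p = 0.0323) without SOD-CT replicate 1.

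Txnrd2 (−0.81, SE 0.44) and Sephs2 (−0.31, SE 0.30) were lower by more than their SE, but without SOD-CT replicate 1 they were at −0.10 (SE 0.26) and 0.04 (SE 0.23). Secisbp2, Cbs, and Cth had values within their SE. Every SOD-CCI library was below every SOD-CT library for 3 members (Gpx1, by 83.8 against 83.9 CPM, Gpx3, and Gpx4), against 5.66% of all genes, and above for Txnrd1, against 11.8%. The median of the members was −0.72, −0.33 without SOD-CT replicate 1, and −0.01 over all genes. Shorter genes had lower values in SOD-CCI (Spearman 0.23 between length and log2 fold change). With that trend removed, Txnrd1 was at 0.92, Gpx4 at −0.94, Gpx1 at −0.96, Gpx3 at −1.2, and Pstk at −2.14.

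On the fish oil diet, FOD-CCI against FOD-CT, no member had an unadjusted p under 0.05, against 4.52% of all genes. Txnrd1 again had the smallest p, with 94.62, 103.5, and 134.1 CPM in FOD-CT and a log2 fold change of 0.51 (SE 0.24, unadjusted p = 0.0546). Without the library labelled FOD-CCI replicate 1 that value was 0.65 (SE 0.23, unadjusted p = 0.0153, adjusted p = 0.328), and 43 genes were then called, none of them a member. Without FOD-CCI replicate 3 it was 0.32. Gpx1 (0.73, SE 0.55), Gpx3 (0.65, SE 0.58), and Cth (0.67, SE 0.36) were higher and Secisbp2 (−0.72, SE 0.38) and Txnrd2 (−0.47, SE 0.43) lower by more than their SE, but without the blood-rich library Gpx1 was at 0.11 (SE 0.48) and Gpx3 at −0.18 (SE 0.47). Gpx3 was at 1.12 without FOD-CT replicate 1 and 0.42 without FOD-CT replicate 2, and Cth at 0.37 without FOD-CCI replicate 4. Secisbp2 was at −0.89 (SE 0.40, unadjusted p = 0.0456) without the library labelled FOD-CCI replicate 1. Without SOD-CT replicate 1, in neither group, it was at −0.72 (SE 0.28, unadjusted p = 0.0251). In those fits 10.3% and 7.32% of all genes had an unadjusted p under 0.05. For Txnrd2, all FOD-CCI libraries (9.64 to 14.9 CPM) were below all FOD-CT libraries (15.2 to 19.4), a pattern of 2.54% of all genes. With TMM factors of 1.112 for FOD-CT replicate 1 and 1.009 for the library labelled FOD-CCI replicate 1, these groups overlap. Gpx4 (0.30, SE 0.35), Sephs2, Pstk, and Cbs were within their SE. Cbs was at 2.75 (SE 0.98, unadjusted p = 0.015) without FOD-CT replicate 1, the library with spinal cord transcripts.

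Between the sham groups, FOD-CT against SOD-CT, no member had an unadjusted p under 0.05, against 3.39% of all genes. Pstk was nearest (−1.49, SE 0.70, unadjusted p = 0.0519), followed by Gpx1 (−0.76, SE 0.55), and without the muscle-rich SOD-CT replicate 1, the highest library for both, they were at −0.41 (SE 0.52) and −0.03 (SE 0.44). Secisbp2 (0.45, SE 0.38) and Cbs (1.21, SE 1.08) were higher by more than their SE. Without SOD-CT replicate 1, Secisbp2 was at 0.88 (SE 0.31, unadjusted p = 0.0133) and Sephs2, within its SE on all libraries, at 0.56 (SE 0.23, unadjusted p = 0.0289). Secisbp2 was at 0.27 without either FOD-CT replicate 1 or SOD-CT replicate 2. The Cbs value came from the spinal cord library FOD-CT replicate 1 at 44.25 CPM, the other FOD-CT libraries holding 0.9915 and 1.246, and it was −2.44 (SE 0.96, unadjusted p = 0.0253) without that library. Gpx3, Gpx4, Txnrd1, Txnrd2, Sephs2, and Cth were within their SE.

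Whether injury acted differently on the 2 diets was asked with an interaction term. Here 4 of 10 members had an unadjusted p under 0.05, against 5.01% of all genes, and none passed after adjustment (adjusted p = 0.894 for each). The values were 2.01 (SE 0.78) for Gpx1, 1.94 (SE 0.83) for Gpx3, 1.44 (SE 0.51, unadjusted p = 0.013) for Gpx4, and 2.14 (SE 0.98) for Pstk, positive meaning a higher injury effect on fish oil. Shorter genes had higher values here too (Spearman −0.35), and with that trend removed these 4 were at 1.51, 1.77, 1.12, and 1.81. Without SOD-CT replicate 1 the values of Gpx1, Gpx3, and Pstk were 1.30, 1.53, and 1.07, and without FOD-CCI replicate 2 they were 1.39, 1.12, and 1.93. With both left out they were 0.64, 0.67, and 0.82, and Gpx4 was at 0.79 (SE 0.35, unadjusted p = 0.0436). Of these 4, without SOD-CT replicate 1 only Gpx4 kept an unadjusted p under 0.05 (1.06, SE 0.40, unadjusted p = 0.0198), and DESeq2 gave Gpx4 an adjusted p of 0.0953 on all 14 libraries. Txnrd1 was at −0.48 (SE 0.34) and Cth at 0.64 (SE 0.51), or 0.34 without FOD-CCI replicate 4. Txnrd2, Sephs2, Secisbp2, and Cbs were within their SE, but Cbs was at 3.39 (SE 1.22, unadjusted p = 0.0158) without FOD-CT replicate 1.

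**Figure D3:**
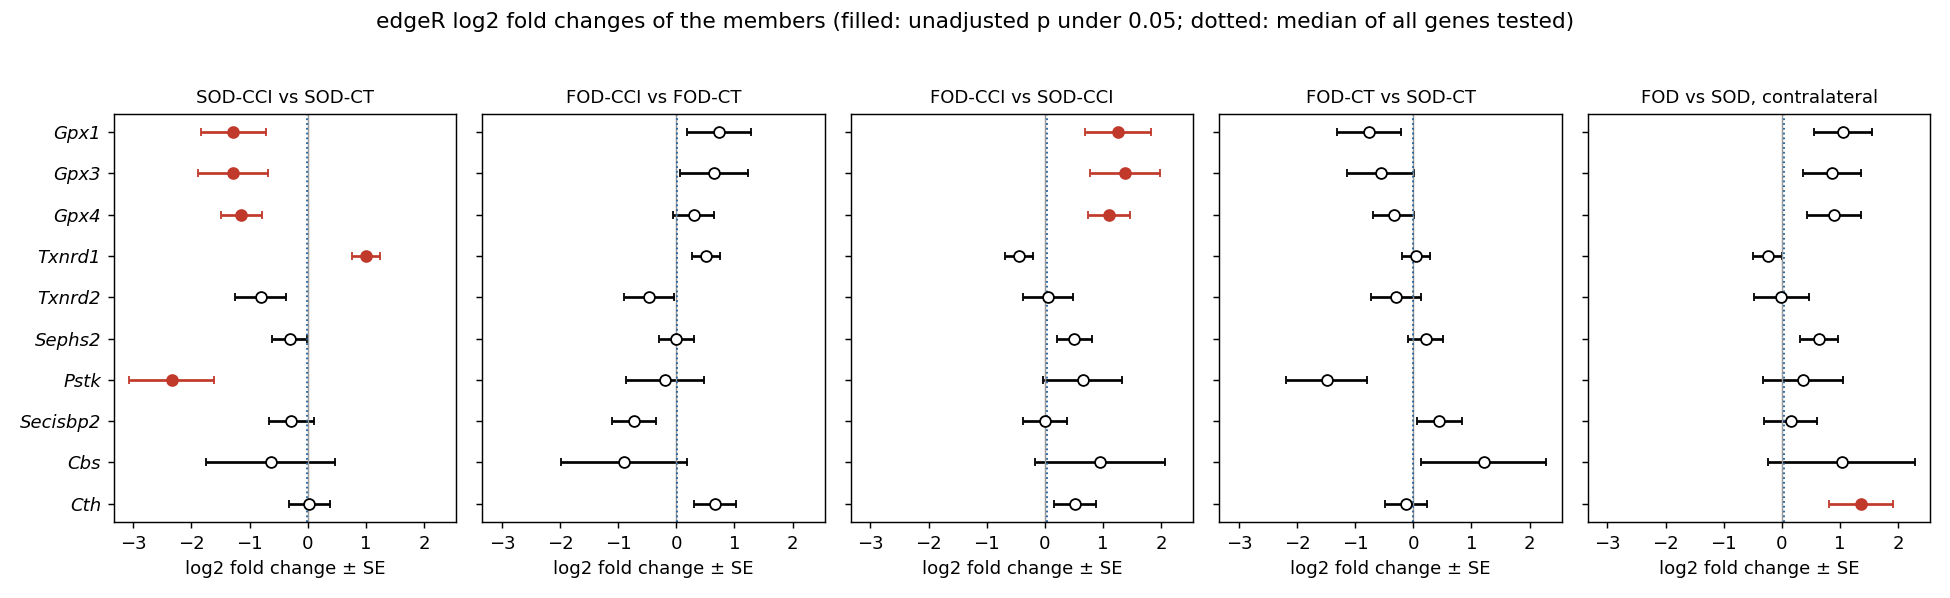
edgeR log2 fold change with its SE for each member in 4 comparisons of left DRG and 1 of contralateral DRG, filled where the unadjusted p is under 0.05 and with the median of all genes as a dotted line. The peroxidases lie left of 0 in SOD-CCI against SOD-CT (−1.14 to −1.29) and right of it in FOD-CCI against SOD-CCI (1.10 to 1.38), and Txnrd1 lies the other way.

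Injured and contralateral DRG were then compared within the 6 rats with both sides. In this model 19 genes were called on soy oil (0.131% of 14549) and 2 on fish oil (0.0137%), with no member among them, and 0% for the difference between diets. An unadjusted p under 0.05 was reached by 1 member on soy oil (Txnrd1, against 8.48% of genes), 1 on fish oil (Cbs, against 6.96%), and 0 for the difference between diets (2.91%).

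Txnrd1 was higher on the injured side in all 3 SOD-CCI rats. The left side measured 214.8, 213.6, and 226.1 CPM against 119.8, 126, and 148.2 on the right, ratios of 1.53 to 1.79. Neither side overlapped the other. Within rats it differed by 0.69 on the log2 scale (SE 0.20, unadjusted p = 0.0079, adjusted p = 0.335). On fish oil the ratios were 0.988 to 1.8, with 2 of 3 rats higher on the left (0.41, SE 0.20, unadjusted p = 0.074), and the value was 0.62 without the replicate 2 rat and 0.22 without the replicate 3 rat. For the difference between diets, Cth alone went beyond its SE, and Gpx1, Gpx3, Gpx4, Txnrd1, Txnrd2, Sephs2, Pstk, Secisbp2, and Cbs were within theirs. Without the blood-rich FOD-CCI replicate 2 rat, that difference was −0.62 (SE 0.30, unadjusted p = 0.074) for Gpx1 and −0.72 (SE 0.36, unadjusted p = 0.0837) for Gpx3.

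Cth was higher on the injured side as well. On soy oil it was higher on the left in 3 of 3 rats, at 4.28 to 7.42 CPM against 1.76 to 3.90, ratios of 1.90 to 2.76 (1.09, SE 0.52, unadjusted p = 0.0658). On fish oil the ratios ran from 0.488 to 2, and the value was within its SE. The difference between diets in Cth was −0.94 (SE 0.75), and −0.33 without the FOD-CCI replicate 3 rat.

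Cbs, the enzyme upstream of Cth, was lower on the left in all 6 rats. The fish oil rats measured 8.257, 9.134, and 3.839 CPM on the left and 17.87, 16.72, and 8.372 on the right, ratios of 0.459 to 0.546 (−1.02, SE 0.34, unadjusted p = 0.0147). Soy oil rats had ratios of 0.546 to 0.932 (−0.60, SE 0.35). Cbs differed more between rats than between sides, from 0.6561 to 9.654 CPM in left SOD-CCI DRG, and without the rat block its fish oil value had a p of 0.361. Replicate 1 of both fish oil groups held spinal cord transcripts, and the value without that rat was −1 (SE 0.43).

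Sephs2 had left to right ratios in CPM below 1 in 6 of 6 rats, from 0.633 to 0.982. The highest, in the fish oil replicate 1 rat, goes above 1 with TMM factors of 1.009 (left) and 1.059 (right). The share of all genes lower on the left in all 6 rats was not computed, for Sephs2 or for Cbs. On fish oil the Sephs2 value was −0.28 (SE 0.20), and −0.44 and −0.07 without the replicate 1 and 3 rats. On soy oil it was −0.17, within its SE of 0.20. Gpx1 had ratios of 1.07 to 1.19 in the soy oil rats and above 1 in 1 of 3 fish oil rats, the blood-rich one, at 2.80, and its values were within their SE on both diets. Without the blood-rich rat, Gpx1 on fish oil was at −0.5 (SE 0.23, unadjusted p = 0.065). Gpx4 was higher on the left in 1 of 3 soy oil rats (−0.42, SE 0.34) and 2 of 3 fish oil rats. Pstk was at −0.69 (SE 0.50) on soy oil. Without the SOD-CCI replicate 1 rat, Gpx4 was at −0.22 and Pstk at −0.34, and Gpx4 was at −0.65 without the replicate 3 rat. On fish oil Gpx4, Pstk, and Cth were within their SE. There Gpx4 was at −0.52 (SE 0.32) without the FOD-CCI replicate 1 rat, and Pstk at −0.82 (SE 0.55) without the blood-rich rat. On soy oil all left libraries lay above all right ones for 3 members (Gpx1, Txnrd1, and Cth), against 12.6% of all genes, and below for Sephs2, against 7.99%. Txnrd2, Gpx3, and Secisbp2 were within their SE on both diets, but Gpx3 on fish oil was at −0.89 (SE 0.28, unadjusted p = 0.014) without the blood-rich rat.

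**Figure D4:**
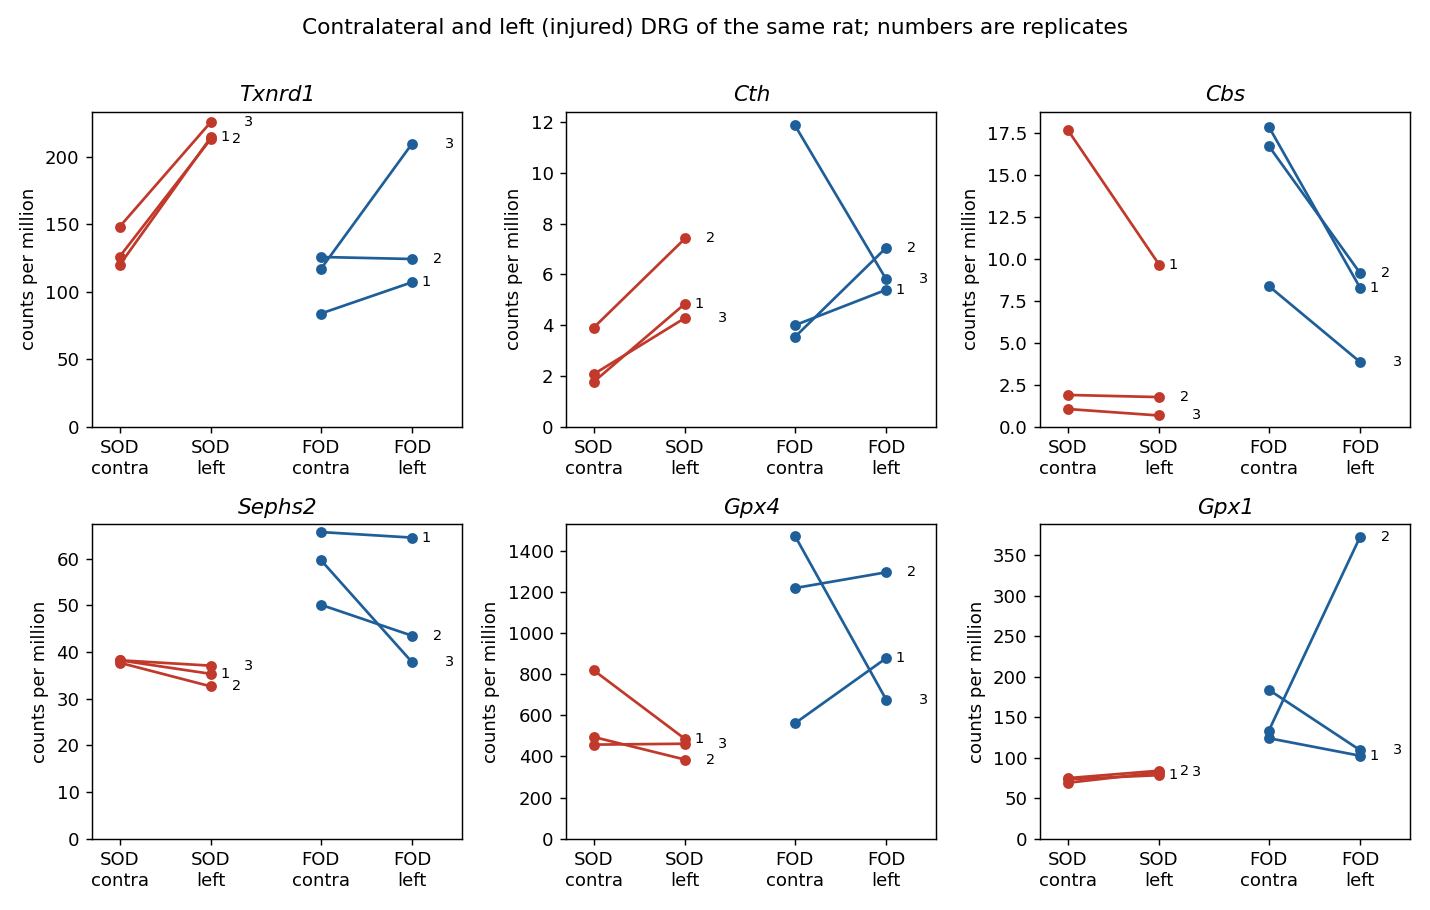
CPM of 6 members in the contralateral and the left, injured DRG of the same rat, joined by a line, for 3 SOD-CCI and 3 FOD-CCI rats. Txnrd1 and Cth are higher on the left in all soy oil rats. In CPM, Cbs and Sephs2 are lower on the left in all 6 rats, Sephs2 by little in the fish oil replicate 1 rat.

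Diet was also compared on the uninjured side, contralateral FOD-CCI against contralateral SOD-CCI. Cth, Gpx1, Gpx4, Gpx3, and Sephs2 had higher values on fish oil by more than their SE. Only Cth had an unadjusted p under 0.05 (1 of 10 members, against 7.1% of 14007 genes), with 3.992, 3.525, and 11.89 CPM on fish oil and 1.758, 3.897, and 2.062 on soy oil and a log2 fold change of 1.37 (SE 0.55, unadjusted p = 0.0278, adjusted p = 0.697). That value leaned on replicate 3 on fish oil, and without it was 0.50 (SE 0.50, unadjusted p = 0.338). Replicate 3 on fish oil, also the highest library here for Gpx1 and Gpx4, held 8080 CPM of skeletal muscle genes. Contralateral SOD-CCI libraries held 178 to 2360. The part of muscle RNA in these values was not tested. Without SOD-CT replicate 1, in the same model but in neither group, 4 of 10 members had an unadjusted p under 0.05, against 11.1% of all genes. Beside Cth these were Gpx1 (1.03, SE 0.29, unadjusted p = 0.00397), Sephs2 (0.62, SE 0.21, unadjusted p = 0.0128), and Gpx4 (0.89, SE 0.40, unadjusted p = 0.0451).

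Gpx1 measured 124, 133.2, and 183.8 CPM in contralateral FOD-CCI and 73.29, 74.65, and 68.93 in contralateral SOD-CCI. The groups were apart. The log2 fold change was 1.05 (SE 0.50, unadjusted p = 0.0551), and red cell genes summed to 1240 to 5420 CPM against 149 to 374 in the same groups, a difference whose part in this value was not tested. Gpx4 (560.8, 1220, and 1476 against 819.9, 495, and 457.7 CPM) overlapped and was at 0.90 (SE 0.47), with replicate 1, the one with spinal cord transcripts, the lowest on fish oil. Without that library and FOD-CT replicate 1 it was 1.22 (SE 0.43, unadjusted p = 0.0164), and without replicate 3 on fish oil 0.56.

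Gpx3 (0.87, SE 0.50, or 0.55 without replicate 1 on fish oil) and Sephs2 (0.64, SE 0.32) completed the higher members. Txnrd1, Txnrd2, Secisbp2, Pstk, and Cbs were within their SE, and Cbs was at 3.32 (SE 1.42) without contralateral SOD-CCI replicate 1. Every fish oil library was above every soy oil library for Gpx1, Gpx3 (23.4 to 43.2 against 11.6 to 23.1 CPM), and Sephs2 (50.1 to 65.7 against 37.7 to 38.2), a pattern of 8.22% of all genes. For Gpx3 the groups overlap with TMM factors of 0.954 for contralateral SOD-CCI replicate 1 and 0.9995 for contralateral FOD-CCI replicate 2. The left and contralateral comparisons of diet share rats, not libraries. The median of the members was 0.76 here. Shorter genes had higher values on fish oil on this side too (Spearman −0.25). With that trend removed, Gpx1 was at 0.75, Gpx4 at 0.68, and the median of the members at 0.65.

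Contralateral SOD-CCI DRG were compared with SOD-CT as well. Gpx1 (−1.42, SE 0.48, unadjusted p = 0.0111), Gpx3 (−1.09, SE 0.48), and Pstk (−1.69, SE 0.67) had an unadjusted p under 0.05, 3 of 10 members against 7.06% of all genes. Gpx1 was at 68.9 to 74.6 CPM in contralateral DRG, under all SOD-CT libraries, as for 3.14% of genes. Without SOD-CT replicate 1, Gpx1 was at −0.68 (SE 0.29, unadjusted p = 0.0369), Gpx3 at −0.65 (SE 0.42), and Pstk at −0.60 (SE 0.45), and the median of the members moved from −0.66 to −0.16. Cth (−1.03, SE 0.52), Gpx4 (−0.69, SE 0.44), and Txnrd2 (−0.64, SE 0.45) were also lower by more than their SE and Txnrd1 (0.30, SE 0.23) higher, but without that library Gpx4 was at −0.29 (SE 0.40) and Txnrd2 at 0.09 (SE 0.25). Sephs2, Secisbp2, and Cbs were within their SE. The comparisons of SOD-CCI and of contralateral SOD-CCI with SOD-CT share the same 4 sham libraries.

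Contralateral FOD-CCI against FOD-CT gave 0 members with an unadjusted p under 0.05, against 1.71% of all genes. Only Gpx4 (0.57, SE 0.47) and Secisbp2 (−0.66, SE 0.46) went beyond their SE. Gpx4 was at 0.89 without contralateral replicate 1, 0.25 without contralateral replicate 3, and 0.33 without FOD-CT replicate 1. Gpx1, Gpx3, Txnrd1, Txnrd2, Sephs2, Pstk, Cbs, and Cth were within their SE, but Cbs was at 3.64 (SE 1.16, unadjusted p = 0.00838) without FOD-CT replicate 1. The contralateral libraries of Txnrd2 (11.4 to 14.2 CPM) lay under all FOD-CT libraries, a pattern of 4.74% of genes. With TMM factors of 0.9838 for contralateral replicate 3 and 1.112 for FOD-CT replicate 1, these groups overlap.

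Members were then compared with each other over the 20 libraries, as Pearson correlations of log2 CPM that share library composition and depth and that carry no test. Of 45 pairs, 32 were positive, with a median of 0.22. Gpx1 went with Gpx3 (0.76) and Gpx4 (0.75), and Txnrd2 with Pstk (0.72). Txnrd1 ran against Pstk (−0.90), also with group means removed (−0.90), and against Txnrd2 (−0.69) and Gpx3 (−0.61). Cbs and Gpx3 had 0.62. The 5 genes most like Gpx4 among 13790 were LOC100910788 (0.97), Ndufs5 (0.96), Phb (0.95), Zbed5 (0.94), and Rpl22l1 (0.94). Ndufs5 encodes a subunit of respiratory complex I, Phb prohibitin of the inner mitochondrial membrane, and Rpl22l1 a ribosomal protein.

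Other genes of selenium and sulfur metabolism were taken as 4 lists. Of 18 further selenoproteins 17 were found and 14 passed the filter. For diet after injury, 2 of the 14 had an unadjusted p under 0.05, against 5.4% of all genes, both higher: Selenop, the secreted selenium carrier (0.81, SE 0.31, unadjusted p = 0.0205), and Selenos, an endoplasmic reticulum protein (0.74, SE 0.29). Selenoo followed (0.50, SE 0.24). Without FOD-CCI replicate 2 Selenos was at 0.54 (unadjusted p = 0.082), and without the library labelled FOD-CCI replicate 1 Selenop was at 0.65 (unadjusted p = 0.0609). In SOD-CCI against SOD-CT, 1 was higher and 4 lower at that threshold, against 13.8% of all genes, with Gpx2, another glutathione peroxidase, at 1.89 (SE 0.56, unadjusted p = 0.0045), Selenoo at −0.75 (SE 0.25), and Selenos at −0.81 (SE 0.29). The medians were 0.40 and −0.29. No gene was called by edgeR, and DESeq2 called Gpx2 (adjusted p = 0.0428) and Selenoo (adjusted p = 0.0549) in SOD-CCI against SOD-CT.

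Gpx2 therefore stood opposite to Gpx1, Gpx3, and Gpx4. It measured 174 to 242 CPM in SOD-CCI, 89.6 to 220 in contralateral SOD-CCI, and 20.6 to 92.4 in SOD-CT, lowest in the muscle-rich SOD-CT replicate 1. The injured libraries lay above all sham libraries, as for 11.8% of all genes. In FOD-CCI it ranged from 47.2 to 221 CPM.

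Of 10 further selenocysteine synthesis, insertion, and uptake genes, 0 had an unadjusted p under 0.05 for diet after injury, against 5.4% of all genes. Trnau1ap, which binds selenocysteine tRNA, was at 1.00 (SE 0.73), Secisbp2l at −0.49 (SE 0.39), and Sephs1 at −0.27 (SE 0.23). In SOD-CCI against SOD-CT, 1 did, against 13.8% of all genes. It was Trnau1ap at −1.93 (SE 0.76, unadjusted p = 0.0237), or −0.70 (SE 0.54) without SOD-CT replicate 1. Lrp8, a receptor for selenoprotein P, was at 1.69 (SE 0.91), or 1.27 (SE 0.56, unadjusted p = 0.0402) without that library, and Sepsecs, which completes selenocysteine on its tRNA, at −0.47 (SE 0.27).

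Among 9 methionine cycle and sulfur amino acid genes, 2 had an unadjusted p under 0.05 in FOD-CCI against SOD-CCI, against 5.4% of all genes, both higher: Cdo1, cysteine dioxygenase (0.95, SE 0.36, unadjusted p = 0.0211), and Mat2b, a methionine adenosyltransferase subunit (0.53, SE 0.24). Neither kept it without FOD-CCI replicate 2 (0.77 and 0.43) or without the library labelled FOD-CCI replicate 1 (0.74 and 0.49). Mpst was at 0.73 (SE 0.53). In SOD-CCI against SOD-CT the lower genes were 3, against 13.8% of all genes, Mat2b (−0.79, SE 0.24), Cdo1 (−1.19, SE 0.37), and Mpst (−1.39, SE 0.54), and Mpst was at −0.37 (SE 0.26) without SOD-CT replicate 1. Of 11 glutathione and thioredoxin partners, 0 had an unadjusted p under 0.05 in the diet comparison, against 5.4% of all genes. Txn2, mitochondrial thioredoxin, was at 0.74 (SE 0.50), Txn1 at 0.36 (SE 0.34, or 0.17 without FOD-CCI replicate 2), and Gpx7 at 0.27 (SE 0.29). After injury on soy oil 2 of the 11 had an unadjusted p under 0.05, against 13.8% of all genes. Both were lower, Txn2 (−1.61, SE 0.51) and Txnip (−1.02, SE 0.40). Slc3a2, a subunit of the cystine importer, was at 0.34 (SE 0.22). Without SOD-CT replicate 1 Txn2, Txnip, and Slc3a2 were at −0.64 (SE 0.22), −0.54 (SE 0.30), and 0.20. DESeq2 called Txn2 (adjusted p = 0.048), Cdo1 (adjusted p = 0.0559), and Mat2b (adjusted p = 0.0632) in that comparison, and edgeR none.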

How the data were processed

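The authors used poly-A selected libraries. Per the labels, reads were trimmed by fastp and mapped by HISAT2, and featureCounts 1.5.0-p3 gave fragments per gene. The deposited counts are whole numbers, unscaled and not pooled. The deposited FPKM values are the authors' counts divided by gene length and a constant per library that is not its total, and were used for levels only. Genome build, strand use, and treatment of reads with several alignments are not given in the sources used here, which leaves genes with near-identical copies or overlapping neighbours uncertain.

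Totals ran from 22547190 to 54437581 counts. A gene entered a model if 90% of its libraries had 10 counts or more (14484, 14549, and 14007 genes in the 3 models). Counts were tested with edgeR 4.0.16 (TMM, two-sided quasi-likelihood test) in R 4.3.3, in 3 models: 14 left libraries; 12 libraries of 6 rats with both sides, with rat as a block; and 13 sham and contralateral libraries. Fold changes are differences of fitted group means, and CPM uses library totals. As alternatives, DESeq2 1.42.0 was run on all libraries of each model with the same filter. Other scalings, filters, blocks, and left-out libraries were run with edgeR only. Scripts were tested on simulated data.

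Left and right DRG with one number come from the same rat, and their deviations from group means correlated above 0.1 in all 6 rats (0.13 to 0.42). FOD-CT and FOD-CCI replicates with one number, from different rats, also did (0.18 to 0.42).

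All 10 members are named in every comparison. The SE of an edgeR value is the size of its log2 fold change divided by the square root of its quasi-likelihood F statistic. It is not a separately estimated standard error of the coefficient. A log2 fold change smaller than its SE is given as within its SE, beside ratios per rat and the overlap of libraries where these are described. From 4 further lists, named genes are up to 3 with the smallest p in each of 2 comparisons. Members and lists were chosen with earlier results of these data known, and the motifs after the values were seen. Older symbols were matched by NCBI gene ID, and Selenow was not matched.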

Additional observations from a re-analysis of the deposited data

Results flagged for a closer look

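In the 2 groups of 4 libraries, the highest or lowest CPM of each member was compared with Dixon's critical value, 20 tests in all, of which chance flags about 1 in 20. Txnrd2 in SOD-CT replicate 1, at 28.87 CPM, lay far above the other SOD-CT libraries, and this is the library with 112000 CPM of skeletal muscle genes. Cbs in FOD-CCI replicate 3, at 3.839 CPM, lay far below the other FOD-CCI libraries at 8.257 to 9.134. No cause was tested for either.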

How the results depend on the processing

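By edgeR no member was called in any comparison, and this held when any 1 library or rat was left out. DESeq2 called 3 members in SOD-CCI against SOD-CT (Txnrd1, Pstk, and Gpx4), 1 within SOD-CCI rats (Txnrd1), and 1 in the interaction (Gpx4), and edgeR called 1 (Txnrd1, SOD-CCI against SOD-CT) without the left spinal cord libraries. Over all genes DESeq2 called 594 in SOD-CCI against SOD-CT, 472 within SOD-CCI rats, and 264 within FOD-CCI rats, where edgeR called 0, 19, and 2, and in the other comparisons 0 to 60, where edgeR called 0. In edgeR the count for SOD-CCI against SOD-CT was 87 without the spinal cord libraries, 47 without the library labelled FOD-CCI replicate 1, and 1 with the replicate block. Without the filter on low counts 220 genes were called within SOD-CCI rats, 61 within FOD-CCI rats, and 3 for their difference. Within rats no gene was called with no replicate block, and the counts ran from 0 to 471 on soy oil and from 0 to 137 on fish oil with 1 rat left out, both highest without the FOD-CCI replicate 1 rat. No other planned scaling, filter, or grouping changed the count of members called, and the cause was not tested.

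The median log2 fold change of the members moved by more than the spread between replicates in few settings. In SOD-CCI against SOD-CT it was −0.31 without SOD-CT replicate 1 and FOD-CCI replicate 2 together and ran from −0.99 to −0.33 with each library left out. In the interaction it was 0.91 with the replicate block and 1.04 without the spinal cord libraries, and ran from 0.28 to 1.05 with each library left out. It ran from −0.31 to 0.25 within FOD-CCI rats and from −0.93 to −0.16 for contralateral SOD-CCI against SOD-CT.

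Of 52 member values beyond their SE, 4 changed sign. Gpx3 in FOD-CCI against FOD-CT was −0.18 without SOD-CT replicate 1 and FOD-CCI replicate 2 and ran from −0.18 to 1.12 with each library left out. Cbs in FOD-CT against SOD-CT was −0.22 with the replicate block and −2.44 without the spinal cord libraries, and ran from −2.44 to 1.76. Sephs2 in SOD-CCI against SOD-CT was 0.06 without the muscle and blood libraries and ran from −0.42 to 0.04. Txnrd2 in contralateral SOD-CCI against SOD-CT ran from −0.88 to 0.09. The replicate number as a block changed no call of a member. The lowest count of a member in any library was 19 (Cbs). Leaving out spinal cord libraries in the contralateral model and scaling by totals alone were chosen after seeing the data.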
